A study of Mus musculus with 6 samples.

Results

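The genes examined here were 9 actin crosslinkers and focal adhesion linkers, chosen by name: Actn1, Actn4, Flna, Plec, Tln1, Vcl, Parva, Parvb and Phactr1. All 9 were among the 18810 genes of the expression table, found by matching Ensembl identifiers to symbols in the annotation of mouse genome build mm9. The table held RNA-seq of atrioventricular canal (AVC) regions from C57BL/6 mouse embryos at embryonic day 15.5 (E15.5), taken from 3 Scx-/- hearts and 3 Scx+/+ littermates, with 1 heart per library. Scx encodes Scleraxis, a basic helix-loop-helix transcription factor of tendons, heart valves and other connective tissues, and Scx-/- embryos were null in every tissue rather than in the valve alone. The dissected piece contained the mitral, tricuspid and aortic valves, and myocardium was kept to a minimum but not removed.

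Actin filaments bear load only when they are tied to one another and to the membrane. Alpha-actinins and filamins cross-bridge neighbouring filaments, while talin grips the cytoplasmic tails of integrins in focal adhesions and recruits vinculin, which in turn holds actin. Parvins bind integrin-linked kinase and actin as part of a second connection to the same integrins, plectin ties intermediate filaments to the actin network, and Phactr1 binds actin monomers and protein phosphatase 1. In the valve, interstitial cells use this apparatus to pull on the collagen and proteoglycan matrix around them.

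Expression was given as RPKM, read counts divided by exon length and by library size. Depth, recovered from these values, was 46429990 to 68571030 reads per library, and the libraries correlated at Spearman 0.924 to 0.957. Scx+/+ replicate 2 stood apart, with the fewest reads and with 56.9% of its summed RPKM in its 10 highest genes against 30.7% to 43.9% in the other libraries. Where a result rests on it, values without it are given. Of the Scx-/- libraries, replicate 3 deviated from its group mean most like it (correlation across genes 0.32), although its depth and its 10 highest genes were within the range of the others. Results are therefore also given without this pair, Scx+/+ replicate 2 and Scx-/- replicate 3. Xist, the RNA of the inactive X chromosome, was 21.7 RPKM in Scx-/- replicate 2 and 12.7 RPKM in Scx+/+ replicate 2 and at the fill-in value of 0.0949 RPKM in the other libraries. Scx itself was 33.6, 18.6 and 82.9 RPKM in Scx-/- and 29.5, 58.3 and 26.0 RPKM in Scx+/+, which does not check the genotype because reads were summed over the whole gene. Markers of valve mesenchyme summed to 485 to 631 RPKM in Scx-/- and 459 to 495 RPKM in Scx+/+ (10 of 10 markers listed), and those of cardiomyocytes to 17920 to 26304 and 16258 to 29652 RPKM (10 of 10 listed). Cardiomyocyte RNA was thus abundant in every library, and cardiomyocytes themselves use alpha-actinin, filamin, plectin and vinculin at Z-discs and cell junctions. Such sums follow the highest markers. In each list 1 marker, Col1a1 or Myh7, was lower in every Scx-/- library than in every Scx+/+ library, as were 2.31% of all genes. No marker of these lists was higher in every Scx-/- library, as 7.19% of all genes were.

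Fold changes are on the log2(RPKM + 0.1) scale, Scx-/- over Scx+/+, with the standard error (SE) from limma across all genes. A gene is said to have risen or fallen when its unadjusted limma p was below 0.05, the threshold of the study. After Benjamini-Hochberg adjustment no gene of the table passed 0.05 in limma (smallest adjusted p = 0.173), although 731 did so unadjusted. The median gene was shifted upward by 0.10 in Scx-/-, so that 36.2% of all genes lay below 0. Of the 9 genes, 2 fell, Parvb and Plec, and none rose. Of all genes 3.89% passed the same threshold, 1.06% that fell and 2.82% that rose. In 4 of the 9, Actn4, Plec, Parvb and Phactr1, all 3 Scx-/- libraries lay below all 3 Scx+/+ libraries, as they did in 2.31% of all genes, while in none of the 9 did they all lie above, as in 7.19% of all genes. These 4 are genes that the study named as changed in these same libraries, so their number is no independent evidence of a direction. The median of the 9 log2 fold changes was -0.39 and 8 of 9 were below 0. In bulk tissue fewer cells that express a gene and less RNA per cell cannot be told apart.

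The order of levels by mean RPKM over the 6 libraries was Vcl, Flna, Tln1, Actn4, Actn1, Parva, Plec, Parvb and Phactr1. Vcl, at 46.2 ± 3.70 RPKM (SD, n = 6), stood at percentile 90.8 of all genes, and Phactr1, at 0.274 ± 0.118 RPKM (SD, n = 6), at percentile 5.31. Vcl and Flna, Flna and Tln1, and Parvb and Phactr1 were neighbours whose ranges over the 6 libraries did not meet. The ranges of Tln1 and Actn4, of Actn4 and Actn1, of Actn1 and Parva, of Parva and Plec and of Plec and Parvb overlapped, although within a single library the order held in 6 of 6 libraries for every neighbouring pair but Parva above Plec (5 of 6).

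**Figure D1:**
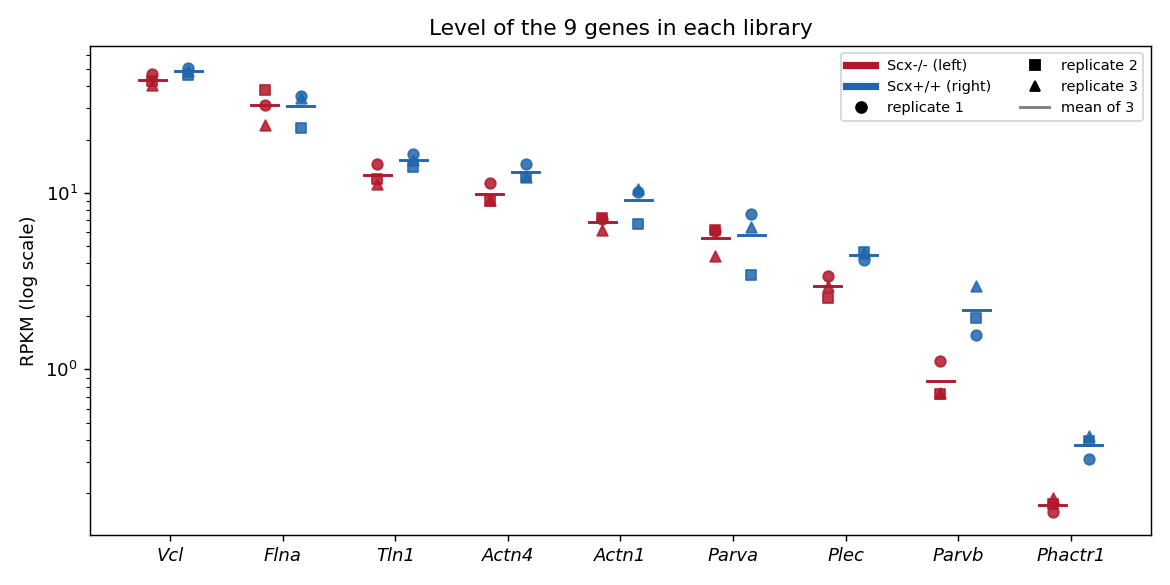
RPKM of the 9 genes in each library on a log axis, ordered by mean level, with Scx-/- in red on the left, Scx+/+ in blue on the right, a symbol for each replicate and a bar at the mean of 3. The red and blue points do not meet for Actn4, Plec, Parvb and Phactr1, and Phactr1 lies lowest, between 0.155 and 0.420 RPKM.

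Parvb, the gene for beta-parvin, an actin-binding adaptor of integrin-linked kinase, showed the largest difference of the 9. It was 1.11, 0.727 and 0.732 RPKM in Scx-/- replicates 1, 2 and 3 and 1.57, 1.95 and 2.98 RPKM in Scx+/+. Every Scx-/- library was therefore below every Scx+/+ library, with Scx-/- replicate 1 highest of its group and Scx+/+ replicate 3 highest of all. Mean levels were 0.857 ± 0.221 and 2.16 ± 0.731 RPKM (SD, n = 3 each), a log2 fold change of -1.22 (SE 0.36; limma, unadjusted p = 0.00847, adjusted p = 0.967). The exact permutation test of 3 against 3 gave p = 0.1, the smallest two-sided value this design allows. Parvb (ENSMUSG00000022438, mm9 chr15:84062473-84146118, plus strand) was counted from 193 to 902 reads per library over 4416 nt of exons. Its fall held at p below 0.05 with each library left out in turn (log2 fold change -1.42 to -0.97) but not without that pair of libraries (-1.18, limma, unadjusted p = 0.0617).

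Parva, the gene for alpha-parvin, the more widely expressed member of the pair, was close to equal in mean between the groups. Its levels were 6.06, 6.15 and 4.40 RPKM in Scx-/- and 7.59, 3.42 and 6.38 RPKM in Scx+/+. Both the highest and the lowest value came from Scx+/+ libraries, replicate 1 and replicate 2, and the groups overlapped. The log2 fold change was -0.01 (SE 0.31; limma, unadjusted p = 0.985), and it lay on either side of 0 when single libraries were left out (-0.34 to 0.22). Parva (ENSMUSG00000030770) spans mm9 chr7:119571019-119735206 on the plus strand. Within each library, Parvb stood at 0.184, 0.118 and 0.166 of the Parva level in Scx-/- and at 0.206, 0.569 and 0.467 in Scx+/+. This ratio did not overlap between the groups (exact permutation p = 0.1), but Scx-/- replicate 1 and Scx+/+ replicate 1 lay close together, and the Parva value of Scx+/+ replicate 2 entered it as a low denominator.

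The coding sequences of Parva and Parvb were compared to see whether reads could be shared between the genes. They were identical at 70.5% of 1098 aligned bases, and the longest run without a difference was 14 nt. The pair of stretches below shows the parvins where they are most alike over 60 nt, with 52 identical bases, from Parva coding positions 788 to 847 and Parvb coding positions 767 to 826 of the mm9 annotation, and the capitals mark the 8 bases that differ.
Parva: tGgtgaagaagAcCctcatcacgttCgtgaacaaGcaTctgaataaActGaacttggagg
Parvb: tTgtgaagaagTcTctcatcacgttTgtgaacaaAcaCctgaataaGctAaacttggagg
No run of 36 nt in the protein-coding transcripts of Parvb occurred in those of another gene, and 2.08% of those of Parva did. Noncoding transcripts and pseudogenes were not searched.

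Plec, the gene for plectin, was the other gene that fell. Its levels were 3.36, 2.54 and 2.97 RPKM in Scx-/- and 4.16, 4.62 and 4.56 RPKM in Scx+/+. All Scx-/- libraries lay below all Scx+/+ libraries, and the spread within Scx+/+ was narrow. Means were 2.96 ± 0.411 RPKM (SD, n = 3) and 4.45 ± 0.250 RPKM (SD, n = 3), a log2 fold change of -0.58 (SE 0.22; limma, unadjusted p = 0.0296, adjusted p = 0.967), with an exact permutation p of 0.1. Plec (ENSMUSG00000022565) lies on the minus strand at mm9 chr15:76001404-76063004, 225 kb from Scx on the same chromosome, whereas Parvb lies 7.77 Mb from Scx. With 18113 nt of exons, longer than 99.8% of genes, and a GC content of 61.2%, higher than 97.7% of genes, it is at the edge of both distributions. Once fold changes were corrected for their trend with length and GC its log2 fold change was -0.32 (limma, unadjusted p = 0.271), and it also missed the threshold without Scx-/- replicate 2 (-0.48, limma, unadjusted p = 0.0618), without Scx+/+ replicate 3 (-0.56, limma, unadjusted p = 0.0548) and without that pair of libraries (-0.56, limma, unadjusted p = 0.0713). The Plec to Vcl ratio within a library was lower in every Scx-/- library (0.0592 to 0.0726) than in every Scx+/+ library (0.0822 to 0.0995, exact permutation p = 0.1). Plec alone already separated the groups, so this ratio is no separate evidence.

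The alpha-actinins Actn1 and Actn4 are the non-muscle crosslinkers of stress fibres and adhesions. Actn4 was 11.4, 9.03 and 9.10 RPKM in Scx-/- and 14.6, 12.2 and 12.2 RPKM in Scx+/+. The groups did not overlap, and replicate 1 was the highest library of each. Means were 9.83 ± 1.33 RPKM (SD, n = 3) and 13.0 ± 1.38 RPKM (SD, n = 3), a log2 fold change of -0.41 (SE 0.18) that did not pass the threshold (limma, unadjusted p = 0.0553, exact permutation p = 0.1). It passed with the median of each library set to 0 (-0.51, limma, unadjusted p = 0.00894), without Scx-/- replicate 1 (-0.51, limma, unadjusted p = 0.0244) and without Scx+/+ replicate 2 (-0.45, limma, unadjusted p = 0.0488). With any other single library left out Actn4 missed the threshold (-0.45 to -0.32), as it did without that pair of libraries (-0.40, limma, unadjusted p = 0.107). Actn4 (ENSMUSG00000054808) is on the minus strand of mm9 chr7:29678267-29747359, and 338 of its 5026 nt of exon, or 6.73%, are shared with Capn12 on the other strand, which was at 0.610 to 1.86 RPKM.

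Actn1 was 7.08, 7.15 and 6.12 RPKM in Scx-/- and 10.1, 6.62 and 10.5 RPKM in Scx+/+. The Scx-/- libraries were close to one another, and the groups overlapped through Scx+/+ replicate 2 alone. The log2 fold change was -0.39 (SE 0.23; limma, unadjusted p = 0.121), and -0.60 without Scx+/+ replicate 2 (limma, unadjusted p = 0.0101). With any other single library left out Actn1 missed the threshold. Actn1 (ENSMUSG00000015143, mm9 chr12:81268529-81361358, minus strand) was counted from 1169 to 2746 reads per library. The ratio of Actn4 to Actn1 was 1.45 ± 0.174 (SD, n = 3) in Scx-/- and 1.48 ± 0.345 (SD, n = 3) in Scx+/+ and overlapped between them.

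The coding sequences of the alpha-actinins are closer than those of the parvins, with 80.5% of 2679 aligned bases identical and a longest shared run of 65 nt. Part of that run is given to show that a short read from it fits both genes, at coding positions 1021 to 1080 of Actn1 and 1081 to 1140 of Actn4 in the mm9 annotation, with no base that differs.
Actn1 and Actn4: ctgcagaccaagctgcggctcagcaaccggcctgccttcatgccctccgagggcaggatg
Such stretches were few, and 0.946% of the 36-nt runs of Actn1 protein-coding transcripts occurred in those of other genes, mostly of Actn4.

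Flna, the X-linked gene for filamin A, which arranges actin into orthogonal nets and whose human counterpart is mutated in an X-linked valve dystrophy, did not differ beyond its spread. Its levels were 31.6, 38.2 and 24.3 RPKM in Scx-/- and 35.1, 23.4 and 34.5 RPKM in Scx+/+. The highest and the lowest value were those of the libraries with Xist, Scx-/- replicate 2 and Scx+/+ replicate 2, and the groups overlapped. Its log2 fold change was 0.02 (SE 0.23; limma, unadjusted p = 0.945) and changed sign with the median of each library set to 0 (-0.09). Flna (ENSMUSG00000031328) lies on the minus strand of mm9 chrX:71468800-71495159. No 36-nt run of its protein-coding transcripts was found in those of another gene.

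Tln1 and Vcl, the genes for talin 1 and its partner vinculin, were lower on average in Scx-/- without passing the threshold. Tln1 was 14.6, 11.9 and 11.1 RPKM in Scx-/- and 16.6, 13.9 and 15.3 RPKM in Scx+/+. Only Scx-/- replicate 1 reached into the Scx+/+ range, above Scx+/+ replicate 2. The log2 fold change was -0.29 (SE 0.18; limma, unadjusted p = 0.145), past the threshold without Scx-/- replicate 1 (-0.40, limma, unadjusted p = 0.0492) and with the median of each library set to 0 (-0.40, limma, unadjusted p = 0.0295). With any other single library left out Tln1 missed the threshold. Tln1 (ENSMUSG00000028465) is on the minus strand of mm9 chr4:43544391-43575563. Of its 9801 nt of exon, 360 nt, or 3.67%, are shared with Creb3 on the other strand, which was at 16.6 to 31.5 RPKM (log2 fold change 0.27).

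Vcl was 47.2, 42.9 and 40.8 RPKM in Scx-/- and 50.7, 46.5 and 49.0 RPKM in Scx+/+. Again a single pair overlapped, Scx-/- replicate 1 above Scx+/+ replicate 2. The log2 fold change was -0.16 (SE 0.15; limma, unadjusted p = 0.316), and it missed the threshold with each library left out in turn (-0.22 to -0.11). Vcl (ENSMUSG00000021823, mm9 chr14:21748655-21852895, plus strand) shares 39.9% of its 5229 nt of exon with Ap3m1 on the other strand, and no strand setting is given for the counting, so that part of its value may be Ap3m1 reads. Ap3m1 was 21.3 ± 1.49 and 20.3 ± 1.43 RPKM in Scx-/- and Scx+/+ (SD, n = 3 each, log2 fold change 0.07). The ratio of Vcl to Tln1 was 3.50 ± 0.233 (SD, n = 3) and 3.20 ± 0.140 (SD, n = 3) and overlapped between the groups.

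Phactr1, which couples actin monomers to protein phosphatase 1, was the lowest of the 9 by far and is known from few reads (78 to 277 per library). It was 0.155, 0.172 and 0.188 RPKM in Scx-/- and 0.312, 0.394 and 0.420 RPKM in Scx+/+. Both groups were tight and well separated, and all values were above the fill-in value. Means were 0.172 ± 0.0165 RPKM (SD, n = 3) and 0.376 ± 0.0566 RPKM (SD, n = 3), and the ratio of means was 0.458. On the log2(RPKM + 0.1) scale, which understates changes at such levels, the log2 fold change was -0.80 (SE 0.52; limma, unadjusted p = 0.158, exact permutation p = 0.1). In limma the intensity trend assigns a wide variance to genes this low, and without that trend the p was 0.00591. With a library left out, Phactr1 passed in 2 of 6 fits, without Scx-/- replicate 2 or Scx+/+ replicate 3 (limma, unadjusted p = 0.0462 and 0.0445). In the other fits of that kind it missed the threshold (limma, unadjusted p = 0.0512 to 0.139). Phactr1 (ENSMUSG00000054728) spans mm9 chr13:42775992-43233895 on the plus strand.

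**Figure D2:**
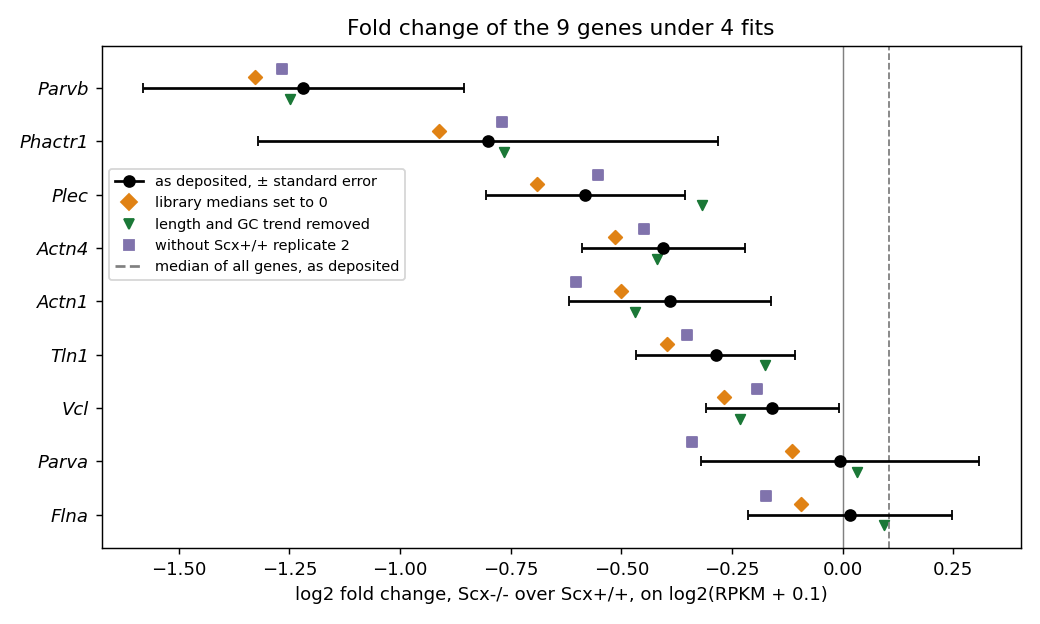
Log2 fold change of each gene, Scx-/- over Scx+/+, from limma as deposited with its standard error (black), with library medians set to 0 (orange), corrected for exon length and GC content (green) and without Scx+/+ replicate 2 (purple). Plec moves from -0.58 to -0.32 with that correction, and Parvb stays between -1.33 and -1.22 in the 4 fits.

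Setting the median of each library to 0 removed the upward shift of the median gene, and with it 4 of the 9 genes fell, Actn4, Plec, Tln1 and Parvb, beside 1.94% of all genes that fell and 1.49% that rose. The number of genes whose groups did not overlap rose to 6 of 9 with Tln1 and Vcl, while the share among all genes rose to 5.37%. With quantile normalization 5 fell, Actn1 also, beside 1.88% of all genes. Corrected for exon length and GC content 3 fell, Actn1, Actn4 and Parvb, again beside 1.94%. In limma without the intensity trend 3 fell, Phactr1 also, beside 1.27% of all genes, and in the unmoderated test of the study on log2 RPKM 4 fell, Actn4, Plec, Parvb and Phactr1, beside 1.16%. With Scx-/- replicate 1, 2 or 3 left out 4, 2 and 2 of the 9 fell, beside 1.14%, 0.813% and 0.824% of all genes, and with Scx+/+ replicate 1, 2 or 3 left out 2, 4 and 2 fell, beside 1.25%, 2.49% and 0.872%. Without that pair of libraries 1 fell, Actn1, beside 2.38%.

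Across single libraries the 9 genes did not split cleanly by genotype. All 9 were below their own mean in Scx-/- replicate 3 and all 9 above it in Scx+/+ replicates 1 and 3. Scx-/- replicate 1 had 5 genes above and 4 below, and Scx+/+ replicate 2 had 6 above and 3 below. Measured by the root mean square (RMS) difference of centred log2 values over the 6 libraries, the profiles most alike were those of Actn4 and Tln1 (0.0811), and the nearest member to Vcl was also Tln1 (0.0919). Flna and Parva were nearest to each other (0.175), and the nearest to Parvb was Phactr1, at 0.357.

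**Figure D3:**
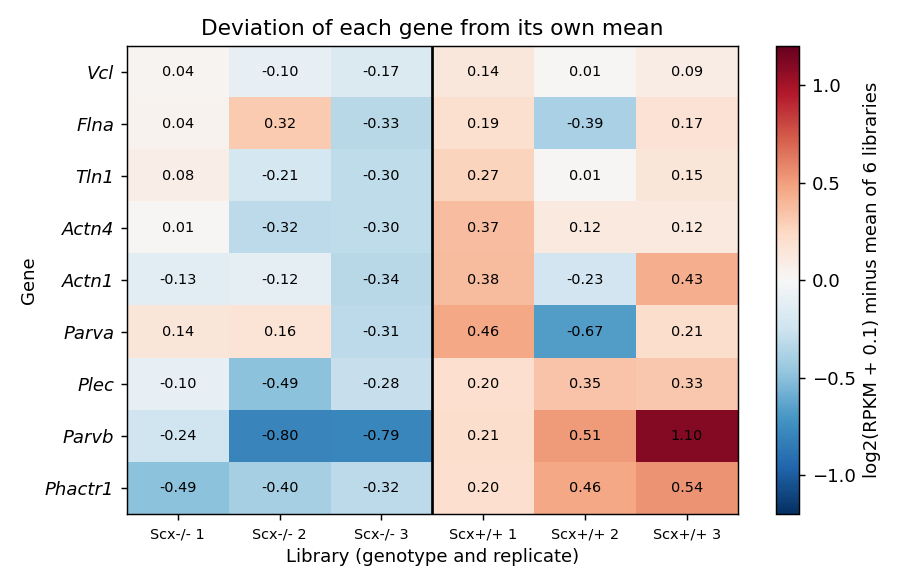
Heat map of log2(RPKM + 0.1) minus the mean of the 6 libraries for each gene (vertical) in each library (horizontal), red above and blue below the mean. The column of Scx-/- replicate 3 is blue throughout, those of Scx+/+ replicates 1 and 3 are red throughout, and Flna and Parva are blue in Scx+/+ replicate 2 (-0.39 and -0.67).

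Among 13819 other genes averaging 1 RPKM or more, the profile nearest to the mean of the 9 was that of Flnc, with an RMS difference of 0.0640, followed by Hivep2 (0.0667) and Sart1 (0.0699). Flnc encodes filamin C, the muscle paralog of Flna found at Z-discs. It was 11.0, 9.61 and 9.68 RPKM in Scx-/- and 15.2, 12.7 and 15.9 RPKM in Scx+/+. The groups did not overlap, and Flnc fell by 0.52 on the log2 scale (SE 0.18; limma, unadjusted p = 0.0156, adjusted p = 0.967). The mean of the 9 was itself lower in every Scx-/- library than in every Scx+/+ library. A gene picked for likeness to it differs between the groups through that choice, so this difference is no separate evidence.

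The other genes of the same machinery were taken from lists, which were written with earlier results of these data known. Of 82 genes in 7 lists of related genes, 73 were in the table. Of these, 3 fell (Flnc, Dsp and Tns1), beside 1.06% of all genes, and none rose, beside 2.82%. The median log2 fold change of the 73 was -0.03, beside 0.10 for all genes. Below 0 were 40 of the 73, beside 36.2% of all genes. Among the other alpha-actinins and filamins, Flnc was the 1 of 4 that fell. Actn2, the sarcomeric alpha-actinin, was 243 ± 53.9 and 297 ± 20.9 RPKM in Scx-/- and Scx+/+ (SD, n = 3 each, log2 fold change -0.31, limma, unadjusted p = 0.182). Actn3, the fast-muscle form, was at 0.41 (limma, unadjusted p = 0.532) from 0.319 ± 0.139 and 0.238 ± 0.194 RPKM (SD, n = 3 each).

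Of the other plakins, 3 of 6 were in the table. Dsp, the gene for desmoplakin, which anchors intermediate filaments at desmosomes, fell from 65.2 ± 8.78 to 45.5 ± 5.83 RPKM (SD, n = 3 each), a log2 fold change of -0.52 (SE 0.18; limma, unadjusted p = 0.0170), and missed the threshold without Scx-/- replicate 2 (-0.45, limma, unadjusted p = 0.0554). The giant linkers Dst and Macf1 were at -0.28 (limma, unadjusted p = 0.207) and -0.22 (limma, unadjusted p = 0.243). None of the 18 listed genes among 20 other actin crosslinkers and bundlers passed the threshold, with a median of -0.11.

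Of 37 other focal adhesion linkers and adaptors, 34 were in the table, and Tns1, whose product tensin 1 links integrin tails to actin, was the 1 that passed. It was 7.32, 5.90 and 6.58 RPKM in Scx-/- and 9.56, 8.01 and 11.1 RPKM in Scx+/+. These groups did not overlap, and Tns1 fell by 0.52 on the log2 scale (SE 0.20; limma, unadjusted p = 0.0298). Its call was lost in 7 of 18 alternatives, among them the correction for exon length and GC content (-0.39, limma, unadjusted p = 0.0577) and leaving out Scx-/- replicate 2 (-0.44), Scx-/- replicate 3 (-0.52), Scx+/+ replicate 1 (-0.52) or Scx+/+ replicate 3 (-0.41). Of the binding partners of the parvins, Ilk was at 0.16 (limma, unadjusted p = 0.424) and Lims1, the gene for PINCH1, was at 0.25 (limma, unadjusted p = 0.187). Tln2, the talin 1 paralog, was at -0.18 (limma, unadjusted p = 0.427), Zyx, the gene for zyxin, at -0.39 (limma, unadjusted p = 0.216) and Pxn, the gene for paxillin, at 0.08 (limma, unadjusted p = 0.845). The median of the 34 was -0.02. Without Scx+/+ replicate 2, 10 of the 73 genes fell and 1 rose, beside 2.49% and 5.75% of all genes, and without that pair of libraries 6 fell and 1 rose, beside 2.38% and 6.06%.

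Phactr2 and Phactr4, the paralogs of Phactr1 in the table, were at -0.14 (limma, unadjusted p = 0.592) and -0.36 (limma, unadjusted p = 0.413). No gene passed among the 5 of Phactr relatives and protein phosphatase 1 catalytic subunits (median 0.07), among 6 actins (median 0.15) or among Srf and its actin-sensing cofactors Mkl1 and Mkl2 (median -0.16). All 6 actins were above 0, the direction of the median gene, while 5 were so with library medians set to 0 and 4 with the correction for exon length and GC content. As deposited, Actb was at 0.18 (limma, unadjusted p = 0.437) and Acta2 at 0.17 (limma, unadjusted p = 0.481).

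**Figure D4:**
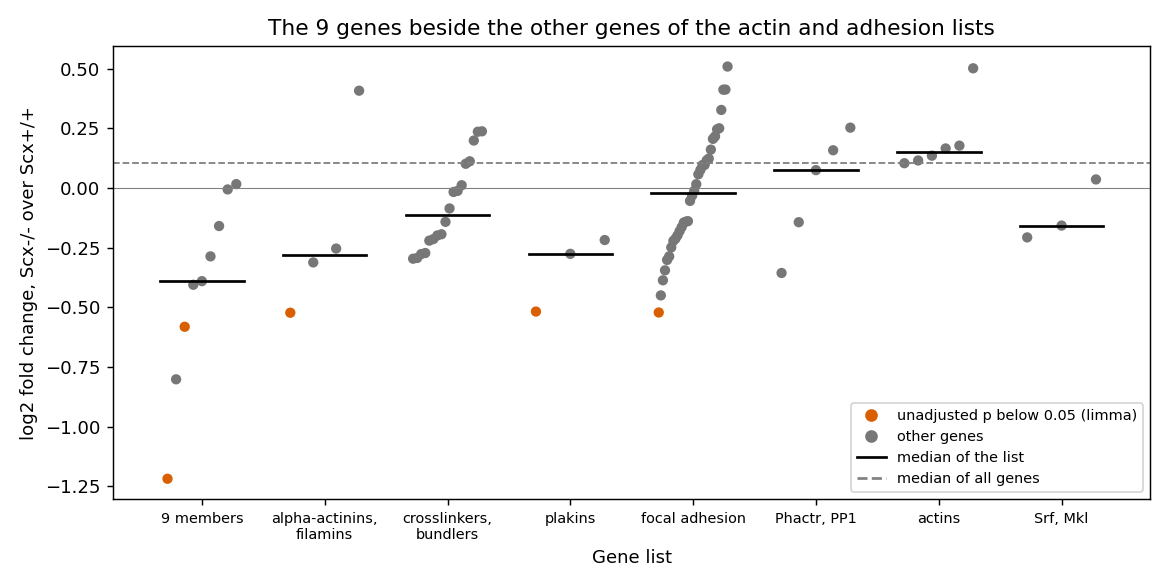
Log2 fold change, Scx-/- over Scx+/+, of each gene in the 9-gene set and in 7 lists of related genes, with list medians as black bars, genes at an unadjusted limma p below 0.05 in orange and the median of all genes (0.10) as a dashed line. The 5 orange points, Parvb, Plec, Flnc, Dsp and Tns1, all lie below 0, and the 6 actins all lie above it, as 5 of them do with library medians set to 0 and 4 with the correction for exon length and GC content.

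The 5 marker genes of other cell types that passed the threshold, of 57 in the table, all rose, beside 2.82% of all genes that rose. They were Cd68 of macrophages (1.48, limma, unadjusted p = 0.0290), Tcf21 (0.57, limma, unadjusted p = 0.0225) and Aldh1a2 (0.60, limma, unadjusted p = 0.0430) of the epicardium and Mlana (1.75, limma, unadjusted p = 0.0187) and Dct (0.90, limma, unadjusted p = 0.0360) of melanocytes. The markers were listed with earlier results of these data known, and the study reported Mlana and Aldh1a2 as raised in these same libraries. The number that rose is therefore no independent evidence of a direction. With the median of each library set to 0, 2 of the 57 rose and 2 endothelial markers fell, beside 1.49% and 1.94% of all genes, and no epicardial marker passed. The epicardial calls were also lost with quantile normalization, with the correction for exon length and GC content and without Scx-/- replicate 2, Scx-/- replicate 3 or Scx+/+ replicate 1, where Tcf21 was at 0.42 to 0.58 and Aldh1a2 at 0.44 to 0.69. Cd68, Aldh1a2 and Dct passed in 9 of 17, 6 of 18 and 8 of 18 alternatives, and Mlana in 17 of 17. Mlana was known from only 39, 15 and 14 reads in Scx-/- replicates 1, 2 and 3. It was at the fill-in value of 0.0949 RPKM in all 3 Scx+/+ libraries, where its reads cannot be recovered. Its fold change is thus measured against a replaced value. Cd68 was at the fill-in value in Scx+/+ replicate 2. The summed level of the epicardial markers was 23.8 to 27.7 RPKM in Scx-/- and 17.5 to 20.9 RPKM in Scx+/+ (5 of 5 in the table), without overlap. The markers of Schwann cells and melanocytes summed to 4.60 to 7.21 and 2.60 to 3.63 RPKM, also without overlap (4 of 7 in the table, Sox10 and Tyr not among them). Smooth muscle markers, whose cells are rich in Vcl and Actn1, summed to 569 to 763 and 522 to 630 RPKM (7 of 7), endothelial markers to 115 to 136 and 116 to 132 RPKM (8 of 8), macrophage markers to 6.65 to 10.9 and 6.75 to 9.05 RPKM (7 of 7) and erythroid markers to 7002 to 10194 and 5471 to 10113 RPKM (6 of 7), all overlapping between the groups. Of the single markers in these overlapping sums, Vwf was lower in every Scx-/- library than in every Scx+/+ library, beside 2.31% of all genes. Tagln and Cd68 were higher in every Scx-/- library, beside 7.19% of all genes. The part of these cell types in the levels of the 9 genes was not tested.

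Start-site sequence was looked at because Scx binds the E-box (CANNTG) and Srf, whose cofactors Mkl1 and Mkl2 sense actin, binds the CArG box. The CArG box is CC followed by 6 bases of A or T and then GG. RefSeq windows of 300 nt on GRCm38.p6, from 250 bases before to 50 bases after a start site, were given for 7 of the 9 genes (9 windows, 3 of them for Phactr1), and not for Plec or Parva. Both strands were searched, and each motif reads the same on both. An E-box was present in 5 of the 9 windows and in 72.3% of 32851 windows of all genes, and a CArG box in 1 of the 9 and in 1.63% of all. The 3 windows shown are those of the genes with 2 E-boxes, Parvb and Actn4, and of Vcl, which holds the CArG box. The share of all windows with 2 E-boxes was not counted. The capitals mark E-boxes in Parvb and Actn4 and the CArG box in Vcl. Parvb is at chr15:84231793-84232092 on the plus strand, Actn4 at chr7:28962283-28962582 on the minus strand and Vcl at chr14:20929148-20929447 on the plus strand.
Parvb: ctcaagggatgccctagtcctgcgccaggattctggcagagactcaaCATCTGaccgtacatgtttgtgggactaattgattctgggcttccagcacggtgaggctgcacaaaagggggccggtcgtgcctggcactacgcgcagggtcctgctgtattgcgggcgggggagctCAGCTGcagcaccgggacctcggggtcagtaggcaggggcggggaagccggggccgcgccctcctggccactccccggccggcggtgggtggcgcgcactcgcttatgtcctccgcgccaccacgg
Actn4: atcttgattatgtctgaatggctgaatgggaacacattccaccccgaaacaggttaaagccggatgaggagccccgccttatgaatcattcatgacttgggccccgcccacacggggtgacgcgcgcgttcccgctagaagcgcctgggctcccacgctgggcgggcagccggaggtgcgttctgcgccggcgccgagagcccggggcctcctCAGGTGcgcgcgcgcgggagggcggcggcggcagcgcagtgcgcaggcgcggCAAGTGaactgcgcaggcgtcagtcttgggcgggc
Vcl: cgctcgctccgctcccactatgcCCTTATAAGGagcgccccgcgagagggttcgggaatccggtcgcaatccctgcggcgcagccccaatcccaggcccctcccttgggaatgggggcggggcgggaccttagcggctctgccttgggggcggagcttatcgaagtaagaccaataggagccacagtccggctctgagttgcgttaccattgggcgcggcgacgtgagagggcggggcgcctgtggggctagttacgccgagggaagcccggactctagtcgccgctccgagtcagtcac
Counted from the start site, the E-boxes of Parvb begin at -203 (CATCTG) and -76 (CAGCTG) and those of Actn4 at -37 (CAGGTG) and 16 (CAAGTG), and the CArG box of Vcl begins at -227. A match is a description of the letters in the window and not evidence of binding.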

How the data were processed

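Total RNA of AVC regions was sequenced on an Illumina instrument, 1 heart per library. Per the labels and the methods of the study, the authors aligned reads to mm9 with TopHat 1.4.1, counted them in Ensembl exons with easyRNASeq, filtered low genes, replaced low values with a common value (0.0949 in the table) and deposited RPKM, which are not counts. The strand setting of the counting is not given in the sources used here.

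Identifiers were matched to the GENCODE annotation of mm9 (18695 of 18810 genes), which gave symbols, positions, exon lengths and GC content. Reads were recovered as RPKM times exon length times depth. Of the lower values, 98.5% to 98.6% came out within 0.1 of a whole read, and no count test was run. The 6 libraries were fitted with limma 3.58.1 (R 4.3.3), each value as the log2 of RPKM plus 0.1. Variances were moderated along an intensity trend, no covariate entered, p-values were adjusted over all genes by Benjamini-Hochberg, and the fit was tested on simulated data. Single values and ratios were compared with the exact two-sided permutation test, which cannot go below p = 0.1 with 3 against 3. Other steps used Python 3.11.15 (scipy 1.17.1, pandas 2.3.3, numpy 2.4.6) and figures matplotlib 3.10.9. Each library is 1 embryo, so the spread is between embryos.

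The 9 genes, the lists of related genes and the markers were chosen with earlier results of these data known. Named are the 9 genes, every listed gene at an unadjusted p below 0.05, the direct paralogs of the 9, the partners Ilk, Lims1, Zyx and Pxn, and the 3 genes nearest to the mean profile. Some of these are not reported here. Actins and the Srf group were named from the lists, and Scx, Xist and genes that share exons with the 9 were named after their values were seen. Alternatives were other pseudocounts, a filter on low genes, other scalings, limma without a trend, the unmoderated test of the study, a correction for exon length and GC content (spline with 5 degrees of freedom), a replicate block and each library left out. Leaving out Scx+/+ replicate 2 and Scx-/- replicate 3 together, and the Xist level as a covariate, were chosen after seeing the data.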

Additional observations from a re-analysis of the deposited data

How the results depend on the processing

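Vcl kept its direction and stayed short of the threshold under all 18 alternatives, and Parvb kept its direction under all 18. In limma 731 genes had an unadjusted p below 0.05, from 539 to 1549 with a library left out, 1587 without Scx+/+ replicate 2 and Scx-/- replicate 3 and 485 with the replicate block after correction for exon length and GC content. Of the 9 genes 2 passed, 2 to 4 with a library left out, 4 in the unmoderated test and with medians set to 0, 5 with quantile normalization, and 1 with the replicate block, with the block and the correction, and without that pair. Of the related genes 3 passed, 1 to 11 with a library left out, 1 without the intensity trend, 1 with the block and the correction, and 7 without that pair.

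Actn1 passed with quantile normalization (-0.51), with the correction (-0.47) and without that pair (-0.53). Actn4 passed in the unmoderated test (-0.41), with medians set to 0 (-0.51), quantile normalization (-0.51) and the correction (-0.42), Tln1 with medians set to 0 (-0.40) and quantile normalization (-0.40), and Phactr1 without the trend (-0.80) and in the unmoderated test (-1.12). Plec missed the threshold with the correction (-0.32), with the replicate block (-0.58), with both (-0.32) and without that pair (-0.56), as Parvb did without that pair (-1.18). Flna turned negative with medians set to 0 (-0.093), quantile normalization (-0.12) and without that pair (-0.0030), and Parva positive with the correction, with and without the block (0.032). The cause of these changes was not tested.

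With each library left out, log2 fold changes ranged from -0.60 to -0.27 for Actn1, -0.51 to -0.32 for Actn4, -0.17 to 0.19 for Flna, -0.68 to -0.48 for Plec, -0.40 to -0.21 for Tln1, -0.34 to 0.22 for Parva, -1.42 to -0.97 for Parvb and -0.90 to -0.73 for Phactr1. Same-numbered libraries deviated from their group means with correlations across genes of 0.09, -0.22 and -0.19. The labels give no litter, and these correlations cannot tell whether same-numbered libraries share a litter or a batch. Depth leaves Phactr1 at 78 to 277 reads per library.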
